A study of Eurytemora affinis with 18 samples.

Results

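LOC111697048 (gametogenetin-binding protein 2-like) and LOC111716440 (zonadhesin-like) are 2 of the 23728 genes counted in the estuarine copepod *Eurytemora affinis*. Both were chosen by the study from measured values, because their counts were lower in males under tebufenozide (TEB) at 50 µg/L than in male controls. That difference, and any other that holds male control or male 50 µg/L libraries, is therefore given here as a description with no p-value. Tests are kept for the comparisons among females and for females against males at 0.5 µg/L.

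TEB is an insecticide that acts as an agonist of the ecdysone receptor, the nuclear receptor of the arthropod moulting hormone. Wild adults from the Seine estuary were held in the laboratory at 15 °C and then exposed for 72 h to solvent alone (control) or to nominal concentrations of 0.5 or 50 µg/L of TEB, and the water of all 6 groups, controls included, held the same amount of acetone. When measured, the water of the higher concentration held well under the nominal amount of TEB, at the start and at the end. At the lower concentration TEB was below the quantification limit at both times, as in controls. The concentrations named here are therefore nominal, and exposure at the lower one was not verified by measurement. RNA came from entire adults. There were 3 pools of 30 males and 3 pools of 30 females without eggs for each condition, which gave 18 libraries. The pools are the replicates, so the p-values measure the spread between pools, and with whole animals fewer cells of a type and less RNA per cell cannot be told apart.

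In mammals, gametogenetin is a protein of male germ cells, and gametogenetin-binding protein 2 (GGNBP2) is one of its partners. Male mice that lack GGNBP2 are less fertile. Zonadhesin is a mammalian sperm protein of the acrosome, the vesicle that opens when sperm meets egg, and it binds the zona pellucida, the coat of the mammalian egg. The copepod genes carry their names by similarity, and neither role is known in copepods.

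Values are deposited read counts, or CPM (read counts relative to library size), with sizes scaled by TMM, a method of edgeR. TMM assumes that most genes keep the same level across the 18 libraries. Between the sexes at 0.5 µg/L, however, 61.5% of the 18110 genes tested differed by the thresholds given below. Summed counts ran from 7983412 to 17114866 in the 9 female libraries and from 3882407 to 10468479 in the 9 male libraries. The 3 male libraries at 50 µg/L, with a median of 5019069, were the shallowest group. A Mid Output flow cell with reads of 150 bp was used for every library at 50 µg/L and for replicate 3 of the females at 0.5 µg/L, and a High Output flow cell with reads of 75 bp for the other 11 libraries. Flow cell and exposure to 50 µg/L therefore cannot be told apart in any comparison with controls.

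Some male libraries stood apart from the rest of their group. Vitellogenin-like LOC111704362, the precursor of egg yolk protein, was at 44.3 to 130 CPM in the 9 female libraries. In male controls it was at 1.34 CPM in replicate 1, 28.8 CPM in replicate 2 and 41.5 CPM in replicate 3. In males at 0.5 µg/L its counts were 0, 51 and 58 in replicates 1, 2 and 3, and at 50 µg/L they were 0, 0 and 2. Replicates 2 and 3 of the male controls thus held clear counts of a female yolk gene, and replicate 1 of that group held few. The study also called this gene in males at 50 µg/L against controls, so it is not independent of the contrast that chose the 2 genes.

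The same split ran through a list of the 200 genes with the largest log2 fold changes (2.64 to 8.27) among those called higher in females than in males at 0.5 µg/L, which holds no gene higher in males and does not hold LOC111697048 or LOC111716440. As a percentage of the female control mean, the median of the list was 0.847, 39.6 and 45.4% in male control replicates 1, 2 and 3. It was 0, 8.07 and 9.57% in males at 0.5 µg/L, whose libraries also served to choose the list, and 0, 0 and 1.55% at 50 µg/L. In the female libraries the median lay between 81.5 and 113%. With a list of 50 genes the median was at 0 in all 3 males at 0.5 µg/L, so the medians within that group no longer differed. Of the 200 genes, 92, 14 and 7 were at 0 counts in the male controls, 111, 55 and 42 at 0.5 µg/L, and 114, 113 and 73 at 50 µg/L.

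Both genes were read in every one of the 18 libraries, and both were higher in every female library than in any male library. The share of all genes with such a split over 9 against 9 libraries was not computed. Within a concentration, 30.9% of the 18110 genes were higher in females without overlap in controls, 36.3% at 0.5 µg/L and 36.2% at 50 µg/L. For LOC111697048 the 9 female libraries lay between 20.5 and 34.6 CPM (190 to 579 counts) and the 9 male libraries between 2.95 and 20.1 CPM (10 to 205 counts). For LOC111716440 the female libraries lay between 118 and 202 CPM (1093 to 2810 counts) and the male libraries between 22.6 and 116 CPM (118 to 1185 counts). The margin was narrow, with the lowest female library at 20.5 and the highest male library at 20.1 CPM of LOC111697048.

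LOC111697048 was at 26.5, 30.2 and 33.3 CPM in replicates 1, 2 and 3 of the female controls. It was at 32.7, 34.6 and 26.8 CPM in females at 0.5 µg/L and at 20.5, 22.8 and 24.7 CPM in females at 50 µg/L. The 50 µg/L females were thus the lowest of the 9 female libraries, and the other 2 female groups overlapped. In males it was at 8.95, 20.1 and 17.0 CPM in controls, at 7.27, 13.4 and 11.7 CPM at 0.5 µg/L and at 3.03, 2.95 and 7.71 CPM at 50 µg/L. Replicate 1 was the lowest library of the male controls and of the 0.5 µg/L males, and replicate 3 at 50 µg/L lay above replicate 1 at 0.5 µg/L.

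LOC111716440 was at 133, 202 and 142 CPM in replicates 1, 2 and 3 of the female controls, with replicate 2 well above the others. It was at 154, 144 and 148 CPM in females at 0.5 µg/L and at 118, 134 and 170 CPM in females at 50 µg/L. The 3 female groups overlapped. In males it was at 40.1, 116 and 92.1 CPM in controls, at 48.3, 77.9 and 70.2 CPM at 0.5 µg/L and at 27.5, 36.3 and 22.6 CPM at 50 µg/L. As for the other gene, replicate 1 was the lowest of the male controls and of the males at 0.5 µg/L.

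**Figure D1:**
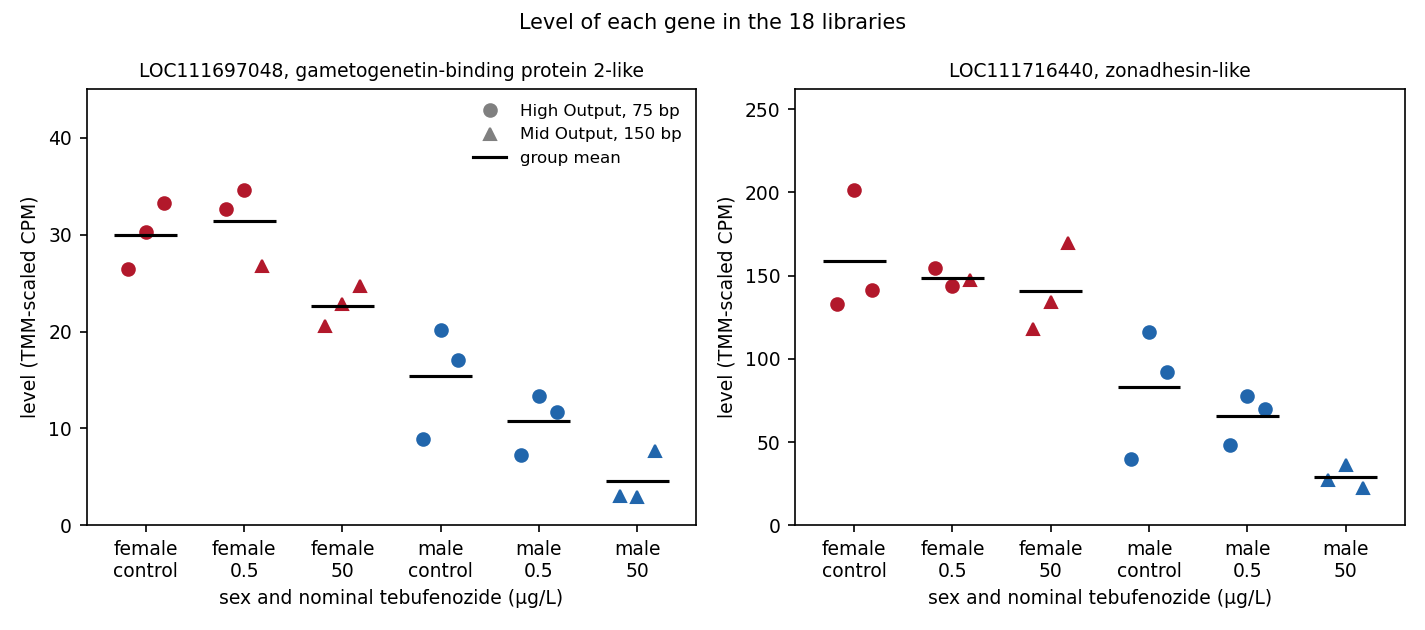
Level of LOC111697048 (left) and LOC111716440 (right) in each of the 18 libraries, in TMM-scaled CPM, by sex and nominal concentration of tebufenozide; circles are libraries of the High Output flow cell, triangles those of the Mid Output flow cell, and lines are group means. All female points (20.5 to 34.6 and 118 to 202 CPM) lie above all male points (2.95 to 20.1 and 22.6 to 116 CPM), and male control replicate 1 lies far below the other male controls.

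Ordered by group mean, LOC111697048 ran from 4.56 ± 2.73 CPM (SD, n = 3) in males at 50 µg/L through 10.8 ± 3.14 CPM in the 0.5 µg/L males and 15.4 ± 5.77 CPM in male controls to 22.7 ± 2.07 CPM in females at 50 µg/L. Female controls (29.99 ± 3.42 CPM) and females at 0.5 µg/L (31.4 ± 4.09 CPM) came last. The neighbours in this order that did not overlap were male controls and females at 50 µg/L, and females at 50 µg/L and female controls. Male groups next to each other in this order overlapped, and so did female controls and females at 0.5 µg/L.

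LOC111716440 followed the same order in males, from 28.8 ± 6.97 CPM at 50 µg/L to 65.5 ± 15.4 CPM at 0.5 µg/L and 82.8 ± 38.9 CPM in controls. In females the order was 141 ± 26.4 CPM at 50 µg/L, 149 ± 5.29 CPM at 0.5 µg/L and 159 ± 37.5 CPM in controls, and each of these differed from the next by less than the larger SD. Males at 50 and at 0.5 µg/L did not overlap, and the SD of the male controls was larger than their distance from the males at 0.5 µg/L.

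The first question was whether the genes differed between the sexes in libraries that had not been used to choose them. The levels compared came from such libraries only. The SE, interval and p also drew on the spread within all 18 libraries, including those that chose the genes. At 0.5 µg/L both genes were higher in females, and all 3 female libraries lay above all 3 male libraries. For LOC111697048 the log2 fold change was 1.54 (SE 0.34, 95% interval 0.83 to 2.25), a 2.90-fold difference with an adjusted p of 0.000646 by the quasi-likelihood test of edgeR. For LOC111716440 it was 1.18 (SE 0.30, 95% interval 0.56 to 1.80), a 2.27-fold difference with an adjusted p of 0.00177. Genes were called where the adjusted p did not exceed 0.05 and the level differed by 2-fold or more. Both genes met this, as did 20.7% of the 18110 genes tested in the direction of higher levels in females, and 36.3% of all genes were higher in females without overlap.

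The median of all genes in that comparison was -0.54 on the log2 scale, that is, lower in females, and relative to it the differences were 2.08 for LOC111697048 and 1.72 for LOC111716440. With size factors of DESeq2 or library totals in place of TMM the median was -0.47 or -0.30, and the differences relative to it were 2.07 to 2.08 for LOC111697048 and 1.72 in each case for LOC111716440. Ordered by signed log2 fold change from the gene highest in females downwards, LOC111697048 ranked 1715 and LOC111716440 ranked 3168 among the 18110 genes. Within the High Output flow cell, that is, without replicate 3 of the females, the log2 fold changes were 1.65 (SE 0.38) and 1.20 (SE 0.33), and both genes were still called. Without replicates 2 and 3 of the males at 0.5 µg/L, where the list of 200 genes was at 8.07 and 9.57% of the female level, the log2 fold changes were 2.14 (SE 0.54) and 1.66 (SE 0.46), against the single remaining male library, which was assumed to vary like the other groups.

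The same direction was seen at the other concentrations, given without a test since these libraries served the choice of the genes. In controls the log2 fold changes of females against males were 0.96 (SE 0.33) for LOC111697048 and 0.93 (SE 0.29) for LOC111716440, with a median of -0.28 over all genes. At 50 µg/L they were 2.24 (SE 0.37) and 2.30 (SE 0.31), with a median of -0.68. The sexes did not overlap for either gene in either case, which held for 30.9% of all genes tested in controls and for 36.2% at 50 µg/L in the direction of higher levels in females. With only replicate 1 of the male controls kept, the difference in controls was 1.77 (SE 0.46) and 2.01 (SE 0.32).

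The second question was whether the genes changed in exposed females, which the choice of the genes did not use. At 0.5 µg/L neither gene passed the test. The log2 fold change against female controls was 0.09 (SE 0.15, 95% interval -0.23 to 0.41) for LOC111697048 and -0.07 (SE 0.16, 95% interval -0.42 to 0.28) for LOC111716440, both with an adjusted p of 0.9996 in edgeR. No gene of the 15555 tested in females was called (0%), 468 had an unadjusted p under 0.05, and DESeq2 called 5. A p that misses the threshold does not show that the genes were unaffected, and the intervals give the changes that the 3 pools leave possible.

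In females at 50 µg/L, LOC111697048 was lower than in all 3 control libraries, yet the difference did not pass the test. Its log2 fold change was -0.36 (SE 0.15, 95% interval -0.68 to -0.03), with an unadjusted p of 0.0327 and an adjusted p of 0.359 in edgeR. Such a drop without overlap was seen for 10.5% of the 15555 genes, of which 1 was called (0.00643%). Against females at 0.5 µg/L the log2 fold change was -0.45 (SE 0.15, 95% interval -0.77 to -0.12, edgeR adjusted p = 0.97), again without overlap, as for 6.78% of the genes. No gene was called between females at 50 and 0.5 µg/L (0%), 737 had an unadjusted p under 0.05, and DESeq2 called 11.

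All the libraries at 50 µg/L came from the Mid Output flow cell. The one library of females at 0.5 µg/L from that flow cell, replicate 3, was at 26.8 CPM of LOC111697048, the lowest of its group (32.7 and 34.6 CPM in the others) and closest to the females at 50 µg/L. With the flow cell as a covariate over the 18 libraries, which rests on that single library, the log2 fold change of females at 50 µg/L against controls was -0.07 (SE 0.60) for LOC111697048. The flow cell and the exposure cannot be told apart for this gene.

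LOC111716440 did not pass the test in females at 50 µg/L. Its log2 fold change was -0.13 against controls (SE 0.16, 95% interval -0.48 to 0.22, edgeR adjusted p = 0.773) and -0.06 against females at 0.5 µg/L (SE 0.16, 95% interval -0.41 to 0.29, adjusted p = 0.993). The groups overlapped, and in females at 0.5 µg/L the Mid Output library (148 CPM) lay between the High Output libraries (154 and 144 CPM). Without female control replicate 2, the highest of the 9 female libraries, the log2 fold change against controls turned from -0.13 to 0.08.

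**Figure D2:**
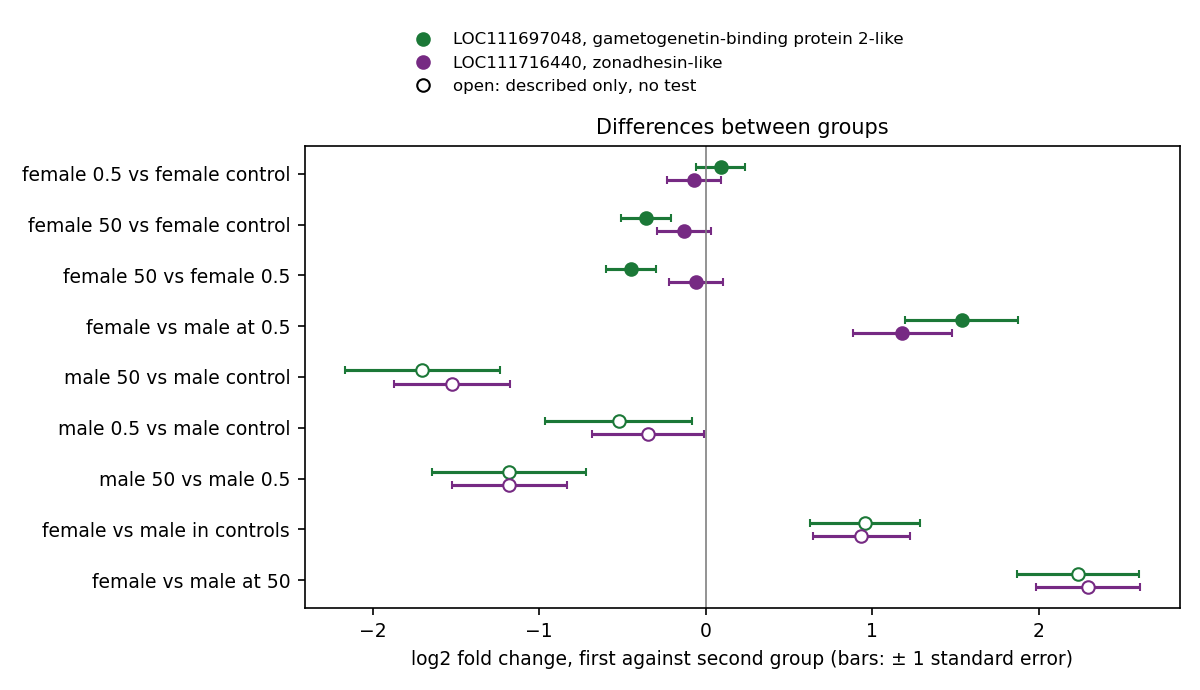
Log2 fold change of the first against the second group in 9 comparisons, for LOC111697048 (green) and LOC111716440 (purple); bars are ± 1 standard error, filled points were tested and open points are described only. The filled points of females against males at 0.5 µg/L lie at 1.54 and 1.18, whereas those among females lie between -0.45 and 0.09.

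In males at 50 µg/L, the contrast on which both genes were selected, the log2 fold change against controls was -1.70 (SE 0.47) for LOC111697048 and -1.52 (SE 0.35) for LOC111716440. For both genes all 3 exposed libraries lay below all 3 controls, which held for 11.2% of the 17492 genes tested in males. The gap was narrow on the side of control replicate 1. For LOC111697048 this control was at 8.95 CPM (60 counts, exact 95% counting interval 6.83 to 11.5 CPM) and the nearest exposed library, replicate 3, at 7.71 CPM (57 counts, 5.84 to 9.99 CPM). For LOC111716440 it was at 40.1 CPM (269 counts, 35.5 to 45.2 CPM) and the nearest exposed library, replicate 2, at 36.3 CPM (123 counts, 30.2 to 43.4 CPM). These intervals overlap, and they cover counting error only.

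The size of the male difference followed which controls were kept. Without control replicate 1 it was -1.95 (SE 0.44) for LOC111697048 and -1.85 (SE 0.25) for LOC111716440. With control replicate 1 alone, the library that held few counts of the yolk gene, it was -0.96 (SE 0.58) and -0.53 (SE 0.33). With the flow cell as a covariate it was -1.36 (SE 0.61) and -1.52 (SE 0.54).

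In males at 0.5 µg/L the levels of both genes overlapped with the controls, and the log2 fold changes were -0.52 (SE 0.44) for LOC111697048 and -0.35 (SE 0.34) for LOC111716440. Against control replicate 1 alone they turned positive, at 0.21 (SE 0.60) and 0.65 (SE 0.34). Between males at 50 and at 0.5 µg/L they were -1.18 (SE 0.46) and -1.18 (SE 0.35). LOC111697048 overlapped between these groups, and LOC111716440 was lower at 50 µg/L without overlap, as were 11.3% of the genes. Leaving out replicate 3 of the males at 50 µg/L moved the value of LOC111697048 to -1.82.

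The change at 50 µg/L against controls was set side by side in the sexes. In females minus males it differed by 1.28 (SE 0.49) for LOC111697048 and by 1.36 (SE 0.42) for LOC111716440 on the log2 scale, and at 0.5 µg/L by 0.58 (SE 0.47) and 0.25 (SE 0.41). These differences were not tested, since the male part of each held the libraries that chose the genes.

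Across the male libraries, the levels of both genes were set beside the list of 200 genes that were higher in females. As a percentage of the female control mean, LOC111697048 was at 29.9, 67.1 and 56.8% in male control replicates 1, 2 and 3, at 24.2, 44.6 and 38.9% at 0.5 µg/L and at 10.1, 9.85 and 25.7% at 50 µg/L. LOC111716440 was at 25.3, 73.3 and 58.0% in the controls, at 30.4, 49.1 and 44.2% at 0.5 µg/L and at 17.3, 22.9 and 14.2% at 50 µg/L. In the controls and at 0.5 µg/L, the libraries with the higher list (replicates 2 and 3) were also those with more of both genes. At 50 µg/L the library with the highest list, replicate 3 (1.55%), held the most of LOC111697048 and the least of LOC111716440. Male libraries with a list median of 0 still held between 9.85 and 30.4% of the female level of either gene. The list was chosen for larger differences between the sexes at 0.5 µg/L (2.64 to 8.27) than those of both genes (1.54 and 1.18). A lower level of the list in males thus follows partly from its choice. The part of the list in the male differences was not tested.

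**Figure D3:**
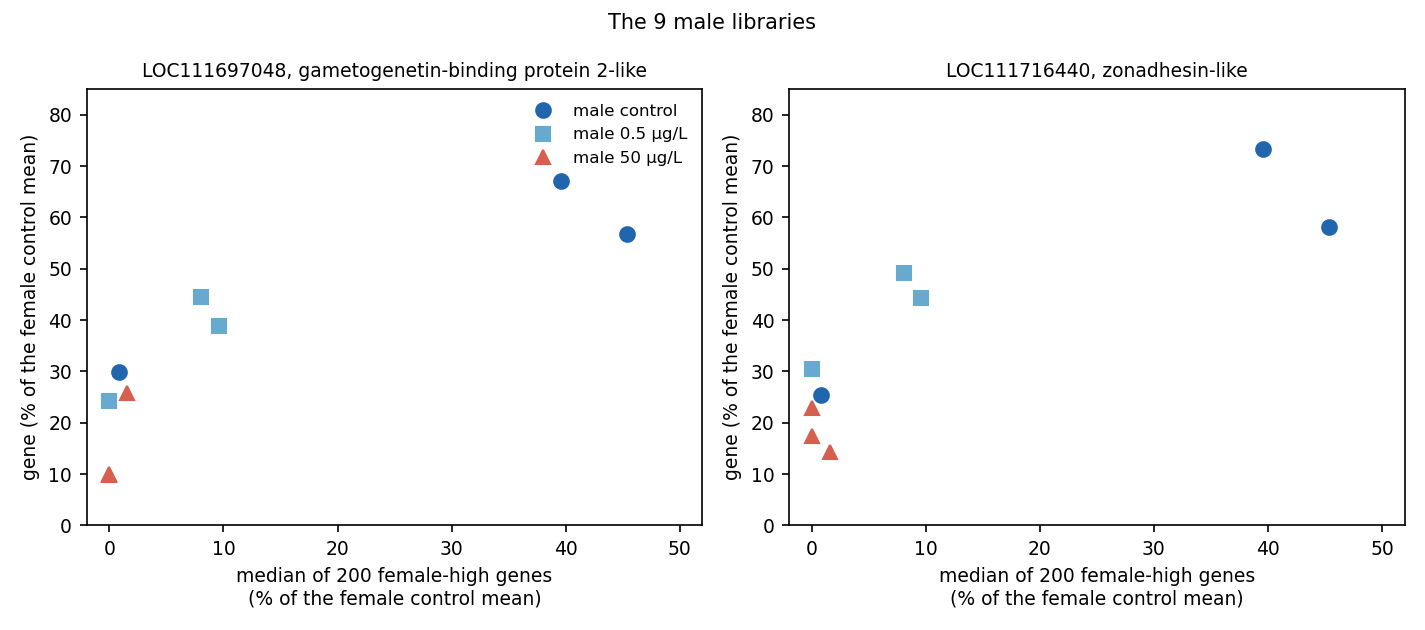
The 9 male libraries, with the median of the 200 female-high genes (x axis) and LOC111697048 or LOC111716440 (y axis), each as a percentage of the mean of the 3 female controls; circles are controls, squares 0.5 µg/L and triangles 50 µg/L, and 2 triangles of LOC111697048 coincide at 10.1 and 9.85%. Male control replicates 2 and 3 stand at the upper right (39.6 and 45.4% of the list), and male control replicate 1 (0.847%) lies among the exposed libraries.

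Other genes of the germ line and the egg were also higher in females than in males. These come from a list of genes that the study called in males at 50 µg/L, as it did both genes. Vasa-like LOC111702462 and LOC111703234 encode an RNA helicase of germ cells in animals, and exuperantia-1-like LOC111705270 is named for a Drosophila protein that localises maternal RNA in the oocyte. Tudor domain-containing protein 5-like LOC111711047 is named for a protein that male germ cells of mice require. At 0.5 µg/L all 5 germ line and egg genes of the list were called higher in females than in males, beside 20.7% of all genes, with a median log2 fold change of 1.84 beside -0.54 over all genes. They ran from 1.43 for LOC111711047 and 1.82 for LOC111702462 to 1.95 for LOC111703234 and 4.13 for vitellogenin-like LOC111704362. All 5 have a name because the study called them in males at 50 µg/L. The 20.7% covers all genes and not genes chosen in that way, so the count is a description. None of the 5 was called in females at either concentration, beside 0% and 0.00643% of all genes. This count therefore says nothing particular to them. In females at 50 µg/L against controls, 4 of the 5 were below 0 and LOC111705270 was at 0.26.

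Both named genes of sperm and meiosis, from the same male list, were called higher in females too. This was again beside 20.7% of all genes, with a median of 2.14. Meiotic nuclear division protein 1 homolog LOC111695634, named for a yeast protein of meiotic recombination, was at a log2 fold change of 2.12, and meiosis-specific nuclear structural protein 1-like LOC111710204 was at 2.16 (edgeR adjusted p of 0.000331 and 0.00534). In males at 50 µg/L against controls the medians were -1.93 for these genes and -2.18 for the germ line and egg genes, which is again the contrast from which the study drew the list.

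The vasa-like and exuperantia-1-like genes, called by the study in the same male contrast, repeated the split of the male controls. In male controls LOC111702462 stood at 21.2 CPM in replicate 1 and at 119 and 136 CPM in replicates 2 and 3, at 16.8, 105 and 103 CPM at 0.5 µg/L, and at 11.6, 9.16 and 14.7 CPM at 50 µg/L, beside 172 to 312 CPM in females. LOC111705270 was at 13.1, 55.2 and 55.3 CPM in the controls, at 14.4, 49.4 and 40.5 CPM at 0.5 µg/L and at 11.9, 4.43 and 12.4 CPM at 50 µg/L, beside 109 to 142 CPM in females. Replicate 1 was the lowest library in the male controls and in the males at 0.5 µg/L for these genes, as it was for LOC111697048 and LOC111716440.

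The balance between LOC111697048 and LOC111716440 was taken from the counts within each library, which needs no scaling. Over the 15 libraries outside the males at 50 µg/L there were 4.16 to 6.88 reads of LOC111716440 for each read of LOC111697048 (median 5.75), in both sexes. In males at 50 µg/L the ratio was 9.08 in replicate 1 (95% counting interval 5.11 to 17.6), 12.3 in replicate 2 (6.47 to 26.3) and 2.93 in replicate 3 (2.16 to 4.03). These 3 libraries lay on both sides of all others, with the fewest counts of LOC111697048 (13 and 10) in replicates 1 and 2. Gene lengths were not used, so the ratio does not compare the levels of the genes with each other.

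**Figure D4:**
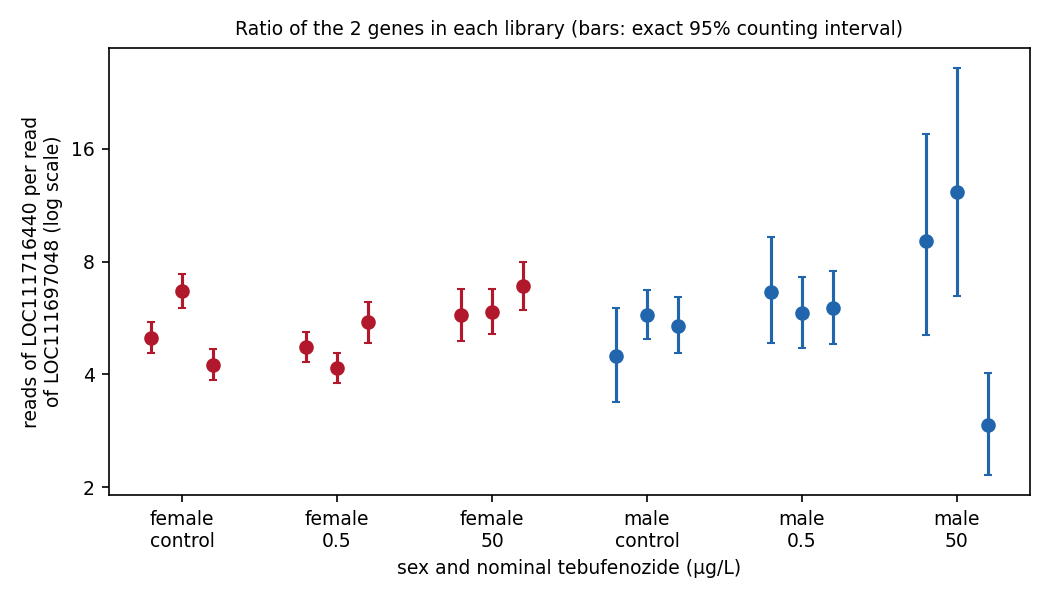
Reads of LOC111716440 for each read of LOC111697048 in each of the 18 libraries (log axis), with exact 95% counting intervals as bars. The 15 libraries outside the males at 50 µg/L lie between 4.16 and 6.88, and the males at 50 µg/L at 9.08, 12.3 and 2.93.

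The levels of both genes were correlated over the 18 libraries, on log2(CPM + 0.5), with a Pearson r of 0.92. The sexes form separate clusters, and within them r was 0.82 over the 9 male and 0.42 over the 9 female libraries. Many genes were more alike to either, since LOC111716440 ranked 895 among the genes ordered by r with LOC111697048, and LOC111697048 ranked 1830 for LOC111716440. For LOC111697048 the 3 most alike genes were dynein light chain 1, cytoplasmic LOC111703738 (r of 0.98 over all, 0.96 in males and 0.75 in females), uncharacterized LOC111695281 (0.98, 0.97 and 0.70) and LOC111710746, which has no name in the tables used (0.98, 0.96 and 0.68). For LOC111716440 they were LOC111695436, also without a name (0.99, 0.99 and 0.89), muscle M-line assembly protein unc-89-like LOC111708045 (0.99, 0.98 and 0.81) and deoxyuridine 5'-triphosphate nucleotidohydrolase-like LOC111694786 (0.98, 0.96 and 0.84). The libraries differ in sex, flow cell and depth together, which enters these values, and the values were not tested.

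A second zonadhesin-like gene, LOC111706122, carried the same name and ran the other way between the sexes. The study drew it from females at 50 µg/L, so its values among females and in any comparison with female control or 50 µg/L libraries are given without a test. It was at 6.29, 3.66 and 5.37 CPM in female controls, at 1.81, 1.95 and 1.71 CPM in females at 0.5 µg/L, and at 2.38, 1.32 and 1.16 CPM in females at 50 µg/L. In males it was at 17.3, 8.34 and 10.8 CPM in controls, at 19.9, 24.4 and 26.1 CPM at 0.5 µg/L and at 14.2, 27.8 and 29.9 CPM at 50 µg/L. Every male library lay above every female library, the reverse of LOC111716440. The share of all genes with such a split was not computed, and within a concentration 37.2 to 47.1% of the genes were lower in females without overlap.

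At 0.5 µg/L the log2 fold change of LOC111706122 in females against males was -3.68 (SE 0.38, edgeR adjusted p = 2.6e-07), that of LOC111716440 was 1.18, and 40.8% of the 18110 genes were called lower in females. The spread behind this SE and p again came from all 18 libraries, including those that chose LOC111706122. The sexes did not overlap in controls or at 50 µg/L either, as for 37.2% and 47.1% of the genes in this direction. In males LOC111706122 did not pass the test at 50 µg/L (0.98, SE 0.37, edgeR adjusted p = 0.125, overlapping with controls) or at 0.5 µg/L (0.94, SE 0.37, adjusted p = 0.942), although at 0.5 µg/L all 3 libraries lay above the controls, as for 5.79% of the genes. In females it was lower than in controls without overlap at 0.5 µg/L (-1.46, SE 0.36; 4.89% of the genes) and at 50 µg/L (-1.61, SE 0.37; 10.5% of the genes). In male controls its highest library was replicate 1, in which LOC111716440 was lowest.

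**Figure D5:**
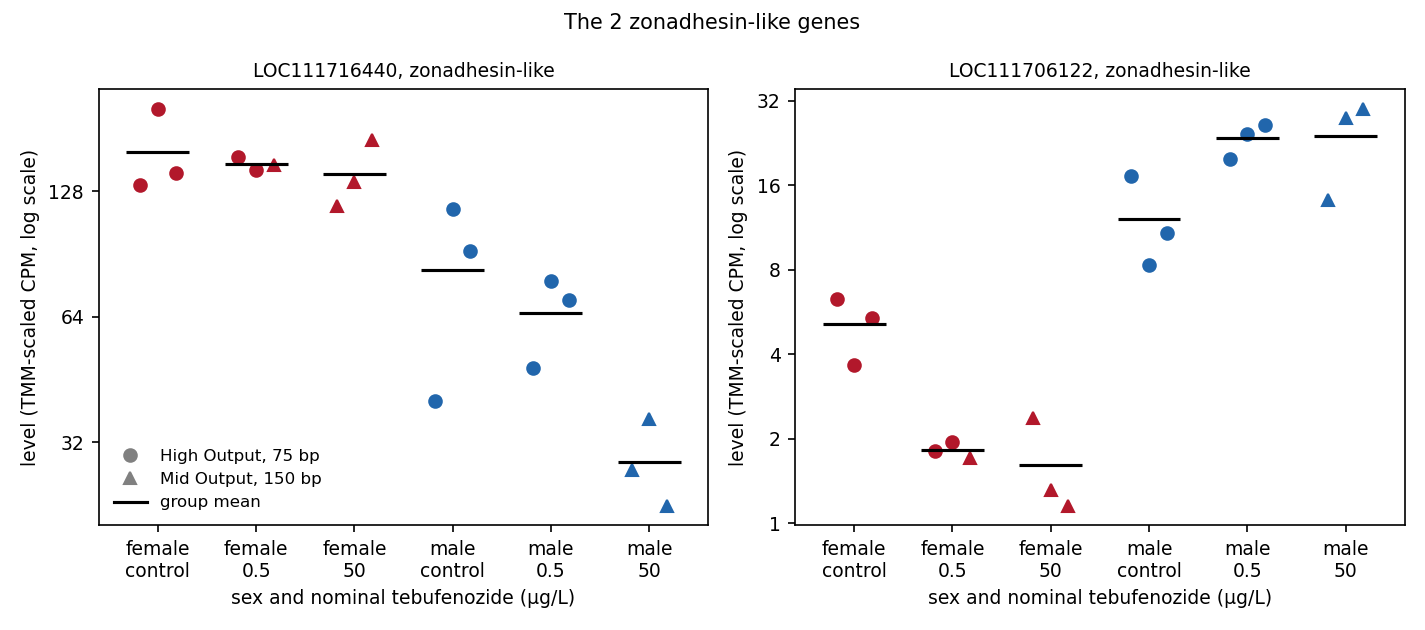
Levels of the zonadhesin-like genes LOC111716440 (left) and LOC111706122 (right) in TMM-scaled CPM on log axes, by sex and nominal concentration; circles are High Output libraries, triangles Mid Output libraries and lines group means. LOC111716440 lies at 118 to 202 CPM in females and 22.6 to 116 CPM in males, whereas LOC111706122 lies at 1.16 to 6.29 CPM in females and 8.34 to 29.9 CPM in males.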

How the data were processed

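The authors deposited counts of reads per gene, without normalization, for 23728 genes in 18 libraries. Trimmomatic was used for trimming of the single-end reads, STAR for alignment on Eaff_2.0 and featureCounts for counting. Tool versions, the use of strand and the handling of reads that match several places are not given in the sources used here. None of the fold changes and p-values in the tables of the study was used. Gene names came from those tables, which name 1434 genes that the study called in these samples, so the lists by name hold only such genes.

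Counts were fitted with edgeR 4.0.16 in R 4.3.3 (default filter on low counts, TMM factors, quasi-likelihood test with robust dispersion), with 1 fit per sex for comparisons within a sex (15555 genes in females and 17492 in males) and 1 fit of all libraries (18110 genes) between sexes. P-values were adjusted over all genes of a fit by Benjamini-Hochberg, and genes were called where the adjusted p did not exceed 0.05 and the level differed by 2-fold or more. DESeq2 1.42.0 was an alternative, beside other size factors, no filter, a replicate block, the flow cell as a covariate and each library left out. Counting intervals are exact at 95% (scipy 1.17.1).

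The 2 genes and the lists were chosen with earlier results of these data known. Named beside them are genes whose name holds zonadhesin or gametogenetin, the markers of yolk, egg and germ line, the 3 genes most alike to each in level, and the extremes of the longer list. No library was a copy of another replicate of its group (chi-square per degree of freedom at least 4.58 between replicates). Libraries of different groups were not compared in this way. By the rule used, replicate numbers counted as pairs only between male controls and males at 0.5 µg/L. There deviations of same-numbered libraries correlated at 0.60, 0.27 and 0.36, over the threshold of 0.1. Replicates 2 and 3, however, correlated up to 0.32 across numbers. The sources used here do not state such a pairing.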

Additional observations from a re-analysis of the deposited data

Results flagged for a closer look

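The libraries at 0.5 µg/L lay on opposite sides of their controls in the sexes for the zonadhesin-like gene LOC111706122. All 3 exposed female libraries lay below all 3 female controls, as for 4.89% of the genes tested in females, and all 3 exposed male libraries lay above all 3 male controls, as for 5.79% of the genes tested in males. The change in females minus that in males was -2.44 on the log2 scale (SE 0.50). The male change did not pass the test (edgeR adjusted p = 0.942). The highest male control, replicate 1, was at 17.3 CPM, beside 19.9 CPM in the lowest male library at 0.5 µg/L. The difference was not tested, since the study drew this gene from a contrast that holds the same female controls. Groups of 3 libraries were too small for a search for single outlying libraries.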

How the results depend on the processing

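In the 4 tested comparisons no call of LOC111697048 or LOC111716440 changed under the other scalings, without the filter, with the replicate block, in DESeq2 or with any 1 library left out. The flow cell as a covariate was fitted only for comparisons that hold 50 µg/L libraries, and there it changed no call of either gene among females. With 1 library left out, the log2 fold changes of LOC111697048 and LOC111716440 in females against males ranged from 1.35 to 1.73 and from 1.03 to 1.34 at 0.5 µg/L, from 0.69 to 1.21 and from 0.61 to 1.28 in controls, and from 2.10 to 3.00 (without male 50 µg/L replicate 3) and from 2.15 to 2.58 at 50 µg/L. In males they ranged from -2.35 to -1.48 and from -1.85 to -1.27 for 50 µg/L against controls, from -0.79 to -0.32 and from -0.67 to -0.09 for 0.5 µg/L against controls, and from -1.82 to -0.96 and from -1.37 to -1.02 for 50 against 0.5 µg/L. In females they ranged from 0 to 0.19 and from -0.19 to 0.13 at 0.5 µg/L, from -0.45 to -0.27 and from -0.29 to 0.08 at 50 µg/L, and from -0.54 to -0.36 and from -0.22 to 0.05 between the concentrations. Alternatives added after the data were examined kept a single library of a male group. With male control replicate 1 alone the values were -0.96 and -0.53 at 50 µg/L, 0.21 and 0.65 at 0.5 µg/L, and 1.77 and 2.01 for females against males in controls, and with male 0.5 µg/L replicate 1 alone they were 2.14 and 1.66 for females against males at 0.5 µg/L. With the replicate block the values for males at 0.5 µg/L against controls were -0.50 and -0.28. These were the only groups whose replicate numbers passed the rule for pairing.

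The number of genes called varied far more. For males at 50 µg/L against controls it was 128, and 76 with library totals, 273 without the filter, 1668 with the replicate block, 1959 in DESeq2, 2112 with all 18 libraries in 1 fit, 0 with the flow cell as a covariate, and 0 (without control replicate 2) to 4077 (without control replicate 1) with a library left out. For males at 50 against 0.5 µg/L it was 17, and in the same order 27, 29, 405, 373, 197, 0, and 0 to 31. For females at 50 µg/L against controls it was 1, and in the same order 0, 3, 0, 143, 4, 0, and 0 to 72 (without control replicate 2). DESeq2 called 5 genes for females at 0.5 µg/L, 11 for females at 50 against 0.5 µg/L and 2 for males at 0.5 µg/L, where edgeR called 0, and with a library left out edgeR called 0 to 3, 0 to 31 and 0. The cause of these shifts was not tested. Library totals moved the calls of females against males in controls from 2099 higher and 6247 lower to 3103 and 5645, and those of males at 50 against 0.5 µg/L from 8 and 9 to 8 and 19. A list of 50 in place of 200 genes put the median at 0 in all 3 males at 0.5 µg/L, in place of 0, 8.07 and 9.57%, so the medians of that group no longer differed, and at 0, 33.6 and 28.6% in the male controls, in place of 0.847, 39.6 and 45.4%. Depth limits the values of LOC111697048 in males at 50 µg/L, which rest on 10 to 57 counts, and those of LOC111706122 in females at 50 µg/L, which rest on 10 to 22.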
